A study of Mus musculus with 7 samples.

Results

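The genes described here encode 9 core structural proteins of myelin, namely Mbp, Mobp, Mag, Mog, Cnp, Mal, Pllp, Cldn11 and Opalin. They were taken by name, and all 9 were found among the 49315 genes of the count files and passed the filter on low counts, which left 18352 genes. RNA was sequenced from primary mouse oligodendroglia, cells grown from newborn mouse brain, shaken off a mixed glial culture and kept for 6 days in SATO medium with thyroid hormone. The 4 control libraries carried the wildtype Klf13 genotype (Klf13-wt) and the 3 knockout libraries the Klf13-ko genotype, each labelled as a biological replicate. The deletion is not restricted to oligodendroglia, and Klf13 was missing in every cell of the mouse before the culture began. The comparison asks how far the transcripts of the myelin sheath differ without KLF13, a Krüppel-like zinc finger transcription factor, in these oligodendroglial cultures.

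Myelin is the plasma membrane of an oligodendrocyte wrapped many times around an axon. MBP holds the cytoplasmic faces of the membrane together in compact myelin, and MOBP is a further small basic protein of the same layer. CNP keeps cytoplasmic channels open, MAG lies next to the axon, MOG is on the outermost face, and claudin 11 forms the tight junction strands of the sheath. MAL and plasmolipin are membrane proteins with the MARVEL fold that take part in sorting of lipid-rich membrane, and opalin is a transmembrane glycoprotein of oligodendrocytes. Transcripts such as Cnp appear early in differentiation, whereas Mog and Opalin mark late stages.

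Upstream sequences are shown for the 3 genes that fell furthest, Mobp, Mog and Mal, and for Pllp and Cldn11, which fell less. They were read from RefSeq promoters of GRCm38.p6, which held 10 promoters for 8 of the 9 genes, and only the part outside the annotated exons is printed, 5′ to 3′ on the strand of the gene. Capitals mark matches on either strand to the Klf motif of the study's methods, spelled out as ACACCC or ACGCCC or ACTCCC or CCACCC or CCGCCC or CCTCCC.
Mobp, chr9:120149492-120149706, plus strand: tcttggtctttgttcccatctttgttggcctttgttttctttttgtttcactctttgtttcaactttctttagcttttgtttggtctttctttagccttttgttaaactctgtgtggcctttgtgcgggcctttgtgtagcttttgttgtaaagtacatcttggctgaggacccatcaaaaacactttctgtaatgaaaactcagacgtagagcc
Mog, chr17:37023399-37023648, minus strand: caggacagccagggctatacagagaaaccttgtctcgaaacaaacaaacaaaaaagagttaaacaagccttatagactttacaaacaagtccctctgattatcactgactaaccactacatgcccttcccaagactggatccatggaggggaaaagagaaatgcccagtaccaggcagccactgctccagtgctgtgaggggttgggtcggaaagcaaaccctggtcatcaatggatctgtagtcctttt
Mal, chr2:127656696-127656945, minus strand: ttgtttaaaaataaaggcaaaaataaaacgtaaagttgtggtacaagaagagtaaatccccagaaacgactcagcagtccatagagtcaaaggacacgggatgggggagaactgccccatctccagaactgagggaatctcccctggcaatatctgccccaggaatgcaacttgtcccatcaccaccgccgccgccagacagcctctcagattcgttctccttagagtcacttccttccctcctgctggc
Pllp, chr8:94696279-94696492, minus strand: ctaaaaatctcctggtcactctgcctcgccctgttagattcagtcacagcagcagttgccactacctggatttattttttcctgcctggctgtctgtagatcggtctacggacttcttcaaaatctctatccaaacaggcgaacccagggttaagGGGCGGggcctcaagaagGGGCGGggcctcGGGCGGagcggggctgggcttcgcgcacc
Cldn11, chr3:31149670-31149919, plus strand: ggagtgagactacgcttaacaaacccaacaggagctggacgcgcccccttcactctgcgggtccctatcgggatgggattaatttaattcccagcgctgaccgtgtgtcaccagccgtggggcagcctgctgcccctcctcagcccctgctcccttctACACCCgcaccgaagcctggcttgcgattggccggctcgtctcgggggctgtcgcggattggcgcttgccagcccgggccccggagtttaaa
The 250 bases before the start site held 0 matches to the Klf motif in Mobp, Mog and Mal, 3 in Pllp, 1 in Cldn11, 3 in Opalin and 2 in Cnp. The 3 annotated promoters of Mag held 4, 6 and 2, with the windows of the first and second overlapping. Among all 32851 promoters of this length, 72.6% held at least 1 match. The 3 matches in Pllp and the 2 in Cnp were all CCGCCC, which is the GC box GGGCGG read on the other strand. Both names therefore stand for the same bases there, and 32.7% of all promoters contained this box. The matches in Cnp began 26 and 8 bases before the start site, where the count files already annotate an exon, and are not printed. The Sox motif, spelled out as ACAAA or ACAAT or TCAAA or TCAAT, matched all 10 promoters and 73.6% of promoters overall. In Mobp it matched 11 times, the most among the 8 genes with a promoter. The windows hold only the bases just before the start, and the matches are a description of letters.

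The libraries held 24507471 to 59596479 counts on genes. Klf13 itself had 10670 to 12000 normalized counts in the 4 controls and 802 to 961 in the 3 knockouts, which is a log2 fold change of -3.69 (SE 0.09) with an adjusted p of 6.77e-06 in the edgeR quasi-likelihood test. Normalized counts are counts scaled by edgeR's TMM factors to a common library size. The oligodendroglial factors Olig1, Olig2 and Sox10 were abundant in every library. Genes on which ribosomal RNA reads collect took 6.03% to 17.95% of the counts, above 10% in 2 controls and 2 knockouts and below it in 2 controls and 1 knockout.

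All 9 myelin protein genes fell in the absence of KLF13, and for each of them the highest knockout library lay below the lowest control library. A gene was called when its adjusted p (Benjamini-Hochberg) was no higher than 0.05 and it changed at least 2-fold, or 1 on the log2 scale. By this rule 7 of the 9 were called lower and 0 higher, against 3.08% and 3.97% of all tested genes. Cnp and Cldn11 passed the adjusted p but missed the fold threshold narrowly. The adjusted p alone was passed in this direction by 12.2% of tested genes, and 18.0% were lower without overlap between the groups. The median log2 fold change of the 9 genes was -2.69, against -0.0037 over all tested genes. Together they took 1.69% ± 0.168 (SD, n = 4) of the counts on genes in the controls and 0.558% ± 0.0542 (SD, n = 3) in the knockouts. In bulk RNA, fewer mature cells and less transcript per cell cannot be told apart. Of the summed drop in normalized counts, 62.6% came from Mbp, 10.6% from Cnp and 8.77% from Mag.

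**Figure D1:**
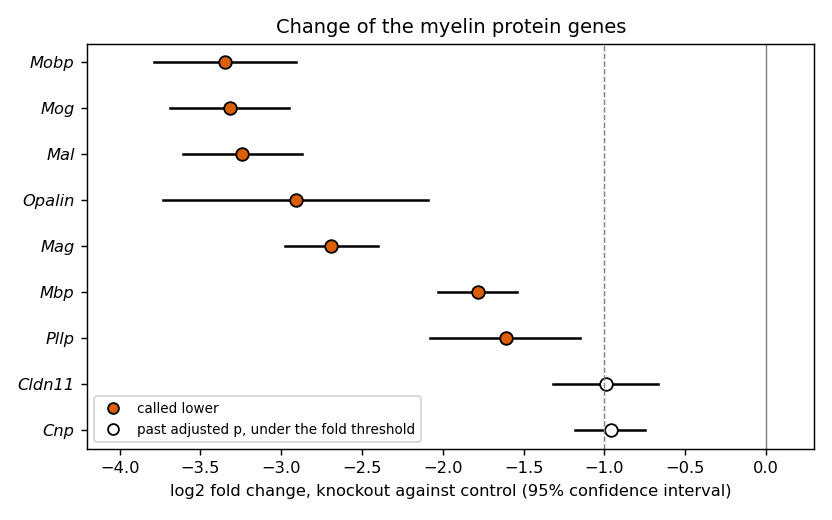
The log2 fold change of each myelin protein gene in the Klf13 knockout (horizontal axis) is shown with its 95% confidence interval from edgeR's quasi-likelihood fit of 4 control and 3 knockout libraries, filled where the gene was called lower. The values run from -3.35 for Mobp to -0.96 for Cnp, and the open points of Cldn11 and Cnp sit at the dashed threshold line.

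Mbp (chromosome 18 of GRCm38, 82475146 to 82585637) had the most counts of the 9 in each group. It had 434048, 495905, 444514 and 418535 normalized counts in control replicates 1 to 4 and 145981, 123782 and 120773 in knockout replicates 1 to 3. The groups were far apart, with the lowest control 2.87 times the highest knockout. The log2 fold change was -1.78 (SE 0.11, edgeR quasi-likelihood test, adjusted p = 8.20e-05), a 3.44-fold difference. The gene also encodes the Golli proteins from an upstream promoter, and the counts per gene do not separate them from classic MBP, as GENCODE M21 lists 16 transcripts. Mobp (chromosome 9, 120149707 to 120181484) had 41725, 47988, 36418 and 28838 normalized counts in control replicates 1 to 4, against 4033, 3431 and 3928 in knockout replicates 1 to 3. The controls spread more than the knockouts, and the groups stayed 7.15-fold apart at their nearest libraries. Of the 9 genes Mobp fell furthest, by a log2 fold change of -3.35 (SE 0.19, edgeR quasi-likelihood test, adjusted p = 6.70e-05).

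Mag and Mog encode surface proteins with immunoglobulin domains at opposite faces of the sheath. Mag (chromosome 7, 30899176 to 30914873) had 50309, 62541, 53424 and 44869 normalized counts in control replicates 1 to 4, against 8677, 8157 and 7752 in knockout replicates 1 to 3. Its log2 fold change of -2.69 (SE 0.12, edgeR quasi-likelihood test, adjusted p = 3.33e-05) had the smallest p of the 9 genes. Mog (chromosome 17, 37010743 to 37023398) had 9700, 10755, 8408 and 8336 normalized counts in control replicates 1 to 4, against 1085, 755 and 964 in knockout replicates 1 to 3. It fell by 3.32 on the log2 scale (SE 0.16, edgeR quasi-likelihood test, adjusted p = 3.99e-05). The gap between its nearest control and knockout libraries, 7.68-fold, was the widest among the 9.

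Cnp and Cldn11 changed least. Cnp (chromosome 11, 100574904 to 100591729) had 105783, 116542, 118151 and 103168 normalized counts in control replicates 1 to 4, against 58381, 61592 and 50825 in knockout replicates 1 to 3. It changed by -0.96 on the log2 scale (95% confidence interval -1.18 to -0.75, edgeR quasi-likelihood test, adjusted p = 7.03e-04). Its exons share 154 bases, 4.2% of their length, with Dnajc7 on the opposite strand, and Dnajc7 had a log2 fold change of 0.04. Cldn11 (chromosome 3, 31149920 to 31164324) had 71716, 69736, 74704 and 91677 normalized counts in control replicates 1 to 4, against 46042, 34483 and 35348 in knockout replicates 1 to 3. Here control replicate 4 and knockout replicate 1 were the highest of their groups, and the nearest libraries were 1.51-fold apart. It changed by -0.99 on the log2 scale (95% confidence interval -1.32 to -0.67, edgeR quasi-likelihood test, adjusted p = 0.00384). In both genes the interval contained the fold threshold, so that being called or not rests on small shifts.

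The genes of the MARVEL proteins had unlike fold changes. Mal (chromosome 2, 127633226 to 127656695) had 7226, 8651, 6502 and 6059 normalized counts in control replicates 1 to 4, against 856, 653 and 756 in knockout replicates 1 to 3. It fell by 3.24 on the log2 scale (SE 0.16, edgeR quasi-likelihood test, adjusted p = 4.21e-05). Pllp, the gene of plasmolipin (chromosome 8, 94674894 to 94696278), had 4173, 4191, 4660 and 6428 normalized counts in control replicates 1 to 4, against 1957, 1364 and 1458 in knockout replicates 1 to 3. Control replicate 4 was well above the other controls. The log2 fold change was -1.61 (SE 0.20, edgeR quasi-likelihood test, adjusted p = 0.00221). Its exons share 1128 bases, 54.2% of their length, with Gm45767 on the opposite strand. Gm45767, which stands outside the rule for named genes, had 389 to 476 normalized counts in the controls and 168 to 203 in the knockouts. Whether the counting used the strand is not stated, so that reads of both genes may not be told apart.

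Opalin (chromosome 19, 41062474 to 41077113) had the fewest counts of the 9 in each group. It had 366, 291, 445 and 377 normalized counts in control replicates 1 to 4, against 77.6, 26.8 and 48.7 in knockout replicates 1 to 3. The knockouts spread widely around their mean, and the lowest control was still 3.74 times the highest knockout. It changed by -2.91 on the log2 scale (95% confidence interval -3.73 to -2.09, edgeR quasi-likelihood test, adjusted p = 0.00201), the widest interval of the 9.

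**Figure D2:**
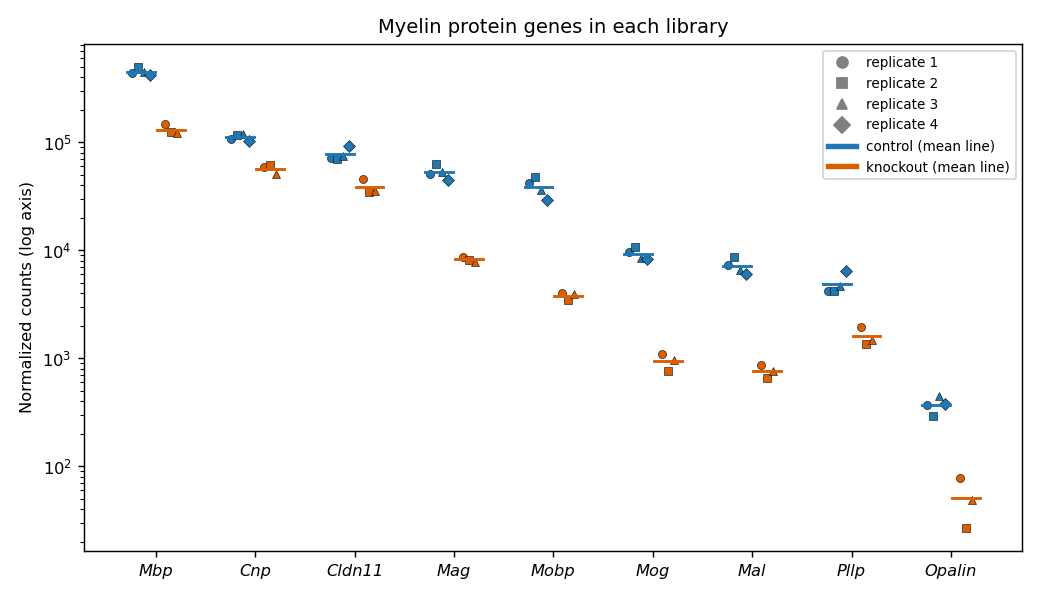
Normalized counts on a log axis are shown for each gene and library, blue for the 4 controls and orange for the 3 knockouts, with a line at the group mean and a marker shape per replicate number. In each gene every knockout point lies below every control point, with the widest gap in Mog and the narrowest in Cldn11.

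Levels of different genes were compared as CPM per kilobase of annotated exon, which divides CPM, the counts scaled to a common total, by the length of the exons. On this scale Mbp led the 9 genes in the controls at 1214 ± 90.8 (SD, n = 4), rank 11 of all tested genes. Cldn11 followed at 936.5 ± 122, Cnp at 694 ± 47.1 and Mag at 295 ± 41.4, with no overlap of libraries between neighbours in this order. Mobp at 129 ± 27.0 and Mog at 124 ± 15.4 could not be ordered beyond their spread, and neither could Mal at 58.2 ± 9.29 and Pllp at 53.1 ± 11.7. Opalin came last at 4.58 ± 0.781. The exon length of Mbp, 8403 bases, includes exons of all its annotated transcripts, which lowers its level on this scale.

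The order changed in the knockouts. Cldn11 then led at 470 ± 78.4 CPM per kilobase (SD, n = 3), above Cnp at 356 ± 34.6 and Mbp at 352.5 ± 37.3, which overlapped. In their ranks among all tested genes, Cldn11 went from 17 to 42, Cnp from 20 to 61 and Mbp from 11 to 62. Mag, at 45.8 ± 2.59, went from rank 81 to 941, Mobp from 241 to 3948 and Mog from 248 to 3992. Pllp, which could not be ordered against Mal in the controls, stood in the fifth place among the 9 genes at 17.4 ± 3.48, and its lowest knockout library was above the highest of Mobp and of Mog. Mal fell to 6.18 ± 0.831 and Opalin to 0.632 ± 0.316. The level of Olig1, a lineage factor, was 540 ± 37.5 in the controls and 503 ± 49.9 in the knockouts. On this scale Mbp, Cldn11 and Cnp stood above Olig1 in the control means and below it in the knockout means. Without division by length Mbp, at 130179 normalized counts, and Cnp, at 56933, stayed above Olig1, at 47748, in the knockout means.

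**Figure D3:**
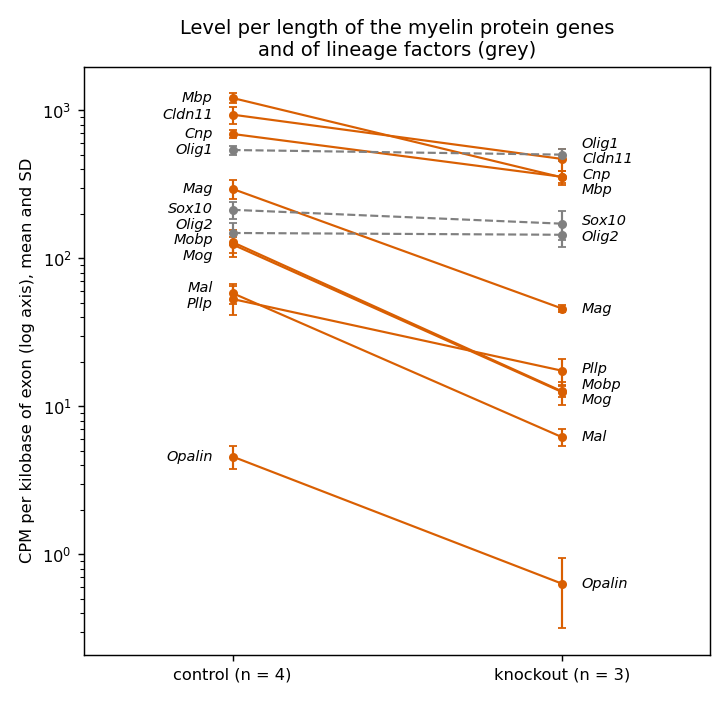
Group means with SD of CPM per kilobase of exon (log axis) are joined from control (n = 4) to knockout (n = 3), with myelin protein genes in orange and Olig1, Olig2 and Sox10 as dashed grey lines. The lines of Mobp, Mog and Mal are steep and nearly parallel, while those of Cldn11 and Cnp are shallow and the grey lines are flatter still.

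Whether the 9 genes fell by unequal amounts was examined with ratios inside each library, which do not depend on library scaling. For 27 of the 36 pairs the log2 ratios of the groups did not overlap. The pairs share the same 9 genes and are not independent. The share over pairs of other genes was not computed. Of all single tested genes, 18.0% were lower and 18.3% higher without overlap. Each of the 27 pairs had p = 0.0571 in a two-sided exact permutation test, the smallest p that 4 against 3 libraries allow. Their adjusted p was 0.0762 over the 36 pairs, so that no pair could pass 0.05. The largest shift was that of Mobp to Cnp, whose log2 ratio went from -1.54 ± 0.27 (SD, n = 4) to -3.91 ± 0.24 (SD, n = 3). The log2 ratio of Mbp to Mag rose from 3.09 ± 0.10 to 3.99 ± 0.08, and that of Mal to Pllp fell from 0.56 ± 0.49 to -1.07 ± 0.12.

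Other ratios stayed within the spread of the libraries. Mobp to Mog differed by -0.01 on the log2 scale between the groups, and with any library left out by -0.09 to 0.06. Mog to Mal differed by -0.09 with a range of -0.12 to -0.05, and Cnp to Cldn11 by 0.03 with a range of -0.10 to 0.15. Mbp to Pllp differed by -0.18, with a range of -0.36 to -0.07. The overlapping pairs were those within Mobp, Mog, Mal and Opalin, that of Mag with Opalin, Mbp with Pllp, and Cnp with Cldn11. With a library left out, 27 to 29 pairs were without overlap. Within the summed counts of the 9 genes, Mobp went from 5.14% to 1.58% and Mog from 1.24% to 0.388%. Cnp went from 14.8% to 23.7% and Cldn11 from 10.3% to 16.0%.

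**Figure D4:**
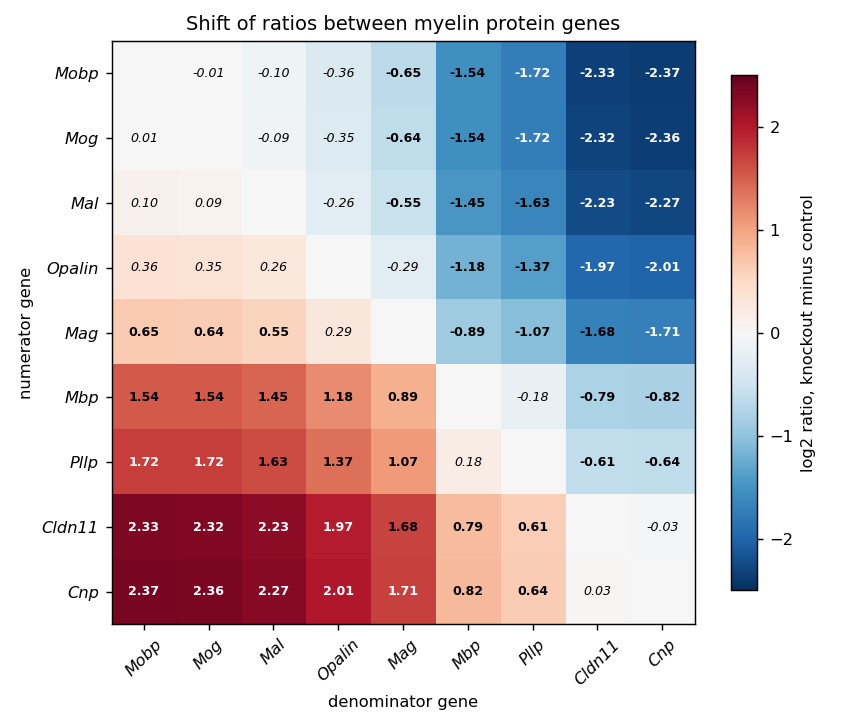
Each square gives the log2 ratio of the row gene to the column gene in the knockout mean minus that in the control mean, with genes ordered by fold change, and bold numbers mark the 27 pairs whose groups did not overlap. Mobp, Mog and Mal form a block near 0 at one corner and Cldn11 and Cnp at the other, with -2.37 between Mobp and Cnp.

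Among the controls the genes did not peak in the same library. Control replicate 2 was the highest control for 5 genes, Mbp, Mobp, Mag, Mog and Mal, and control replicate 4 the lowest for 6, these 5 and Cnp. Pllp and Cldn11 went the other way and were highest in control replicate 4. The log2 ratio of Pllp to Cldn11 was -4.00 ± 0.12 (SD, n = 4) in the controls and -4.61 ± 0.05 (SD, n = 3) in the knockouts, so that it varied little within a group and shifted by -0.61 between them. Knockout replicate 1 was the highest knockout for 8 genes, all but Cnp. The tested genes outside the 9 with the profile nearest to their mean over the 7 libraries included Arhgap28, Prr5l, Sept4 and Fam178b. Their root mean square difference from the mean profile was 0.07, 0.08, 0.08 and 0.09 on the log2 scale. This measure includes the difference between the groups. The 9 genes themselves lay further from their mean. Mag was the nearest at 0.22, with 26 genes outside the 9 nearer still, and Cnp the furthest at 0.69, with 480 nearer. Sept4, a septin that assembles filaments in myelin, fell from 6149 ± 709 to 1275 ± 144 normalized counts (SD, n = 4 and 3).

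Of 40 other genes of myelin and mature oligodendrocytes, 33 passed the adjusted p as lower and 0 as higher, against 12.2% and 11.6% of all tested genes. With the fold threshold 25 were called lower, against 3.08%. Their median log2 fold change was -1.57. Nfasc, whose glial form anchors the paranodal loops, fell by 1.01 on the log2 scale, and Sirt2, a deacetylase of the sheath, fell by 0.79. Ppp1r14a, an inhibitor of protein phosphatase 1, had the lowest value of the list and fell by 4.84 (SE 0.60). It had few counts, 297 ± 137 in the controls and 9.22 ± 7.09 in the knockouts (normalized, SD, n = 4 and 3). Gpm6b and Cntn2 had log2 fold changes of 0.05 and 0.06 and did not pass the test (adjusted p = 0.775 and 0.894, edgeR).

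Relatives of the 9 genes in the MARVEL, claudin and immunoglobulin families passed the test about as often as all tested genes. Of 20 tested, 2 passed the adjusted p as lower and 2 as higher, with a median log2 fold change of -0.21, where 12.2% and 11.6% of all tested genes passed. Cldn14 fell from 217 ± 32.1 to 41.8 ± 15.8 normalized counts, and Cldn10 rose from 42.0 ± 12.9 to 137 ± 16.0. Cmtm4, the most abundant of the relatives, had 6463 ± 215 and 6400 ± 366. Genes for transport and local translation of myelin RNAs had a median of -0.16 over 13 genes, of which 5 passed as lower and 1 as higher, beside the same shares. Tppp, which promotes microtubule assembly in myelinating processes, fell from 31962 ± 2750 to 9945 ± 1235 normalized counts. Qk, the RNA-binding protein quaking, fell by 0.47 on the log2 scale (adjusted p = 0.00323, edgeR quasi-likelihood test), and Fyn, the kinase upstream of Mbp translation, had a log2 fold change of -0.13 (adjusted p = 0.313).

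Of 25 tested regulators of myelin genes, 4 passed the adjusted p as lower, the deleted Klf13 among them, and 2 as higher, where 12.2% and 11.6% of all tested genes passed. Myrf, a central activator of myelin genes, fell from 27880 ± 1204 to 12537 ± 239 normalized counts, a log2 fold change of -1.15 (adjusted p = 4.21e-05, edgeR quasi-likelihood test). Olig1 and Sox10 had log2 fold changes of -0.10 and -0.31 (adjusted p = 0.458 and 0.207). Id4, an inhibitor of differentiation, had a log2 fold change of 1.00 (adjusted p = 0.088). Of 15 genes of oligodendrocyte progenitors, 1 passed as lower and 4 as higher, beside the same 12.2% and 11.6% of all tested genes, with a median of 0.15. Pdgfra, the receptor for PDGF on progenitors, had 27235 ± 780 and 28608 ± 1623 normalized counts.

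When library sizes were set by the summed counts of Olig1, Olig2 and Sox10 instead, the log2 fold changes of the 9 genes ran from -3.18 for Mobp to -0.81 for Cnp, and the largest adjusted p was 0.0133 in edgeR's quasi-likelihood test. Markers of other neural cells were also higher in the knockouts. The summed level of 15 neuron genes was 550 to 789 CPM in the controls and 1206 to 1554 in the knockouts, with 12 of 14 tested genes passing as higher, against 11.6% of all tested genes. That of 11 astrocyte genes was 3505 to 3984 and 5225 to 5953 CPM, with 8 of 11 passing as higher, against the same share. Microglia genes overlapped between the groups, at 656 to 2918 and 654 to 1367 CPM, and 0 of 12 passed the test. None of these lists had a gene at 0 in every library. The part of these cells in the fall of the myelin protein genes was not tested.

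**Figure D5:**
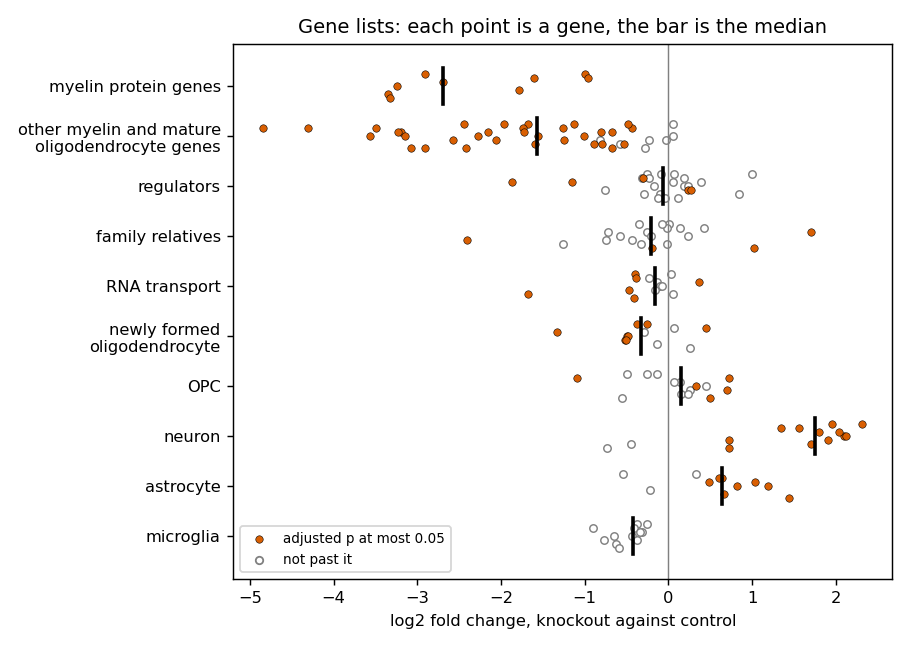
The log2 fold change in the Klf13 knockout is shown for each tested gene of 10 lists, filled where the gene passed the adjusted p of 0.05, with a bar at the median and Klf13 left out. The myelin protein genes have a median of -2.69 and the other myelin genes of -1.57, while the medians of the regulators, relatives and RNA transport genes lie near 0 and that of the neuron genes at 1.75.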

How the data were processed

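RNA-seq counts of 4 control and 3 knockout libraries were used. The authors trimmed reads with Trimmomatic 0.36, mapped them with STAR 2.5.2b to the Ensembl mouse genome (GRCm38 per the labels) and assigned them to genes with featureCounts of Subread 1.5.2. The deposited values are whole counts per gene without normalization, and annotation release and strand setting are not given in the sources used here. Symbols were found for 48970 of 49315 identifiers. The main test used edgeR 4.0.16 in R 4.3.3. Genes passed filterByExpr, were scaled with TMM factors and compared by the robust quasi-likelihood test with group as the only term, with Benjamini-Hochberg adjustment over all 18352 tested genes. Standard errors were derived as the absolute log2 fold change divided by the square root of the F statistic of that test. Confidence intervals used these errors with the t distribution and are approximate. The fit was tested on simulated data. The labels call the libraries biological replicates without naming animals or litters, so p-values measure the spread between these libraries. Deviations from the group mean correlated at 0.11 to 0.46 across genes for libraries with the same replicate number, against -0.53 to 0.20 for other numbers. These ranges overlap, so that a pairing by number was not established. The number was fitted as a block in an alternative. Other alternatives were DESeq2 1.42.0, other scalings and filters, and leaving out each library. Named genes were the 9 genes, Klf13, the 3 most abundant and the lowest and highest changes of each list, and the 5 nearest profiles, and 2 genes that this rule names were left out here. The genes and lists were chosen with earlier results of these data known. A class by ribosomal RNA share was added after seeing the data.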

Additional observations from a re-analysis of the deposited data

Results flagged for a closer look

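In 5 of the 61 genes examined, 1 control library stood apart from the other 3 by Dixon's criterion, which chance meets in about 1 of 20 groups. None of the 9 myelin protein genes was among them. In 3 microglia genes this was control replicate 3, with 21476 normalized counts of C1qa (4595 to 4882 in the other controls), 19021 of C1qb (4000 to 5364) and 1916 of Itgam (267 to 383). Without that library, 8 of the 9 myelin protein genes were called lower, Cldn11 with a log2 fold change of -1.01. Tubb3, a neuronal tubulin, was low in control replicate 1 with 3347 normalized counts (4196 to 4345 in the others). Prr5l was high in control replicate 2 with 1573 (1435 to 1442 in the others).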

How the results depend on the processing

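Under 17 alternatives all 9 myelin protein genes stayed lower and passed the adjusted p of 0.05, and 7 or 8 were called. For Mbp, Mobp, Mag, Mog, Mal, Pllp and Opalin the call held under each. Cldn11 was also called with the ribosomal RNA class as a term, at a log2 fold change of -1.03, and its values ran from -1.13 to -0.88 with a library left out, being called without control replicate 1, 2 or 3 or without knockout replicate 1. Cnp ran from -1.02 to -0.88 with a library left out and from -1.02 to -0.81 over all 17, and was called without knockout replicate 2 only. Opalin ran from -3.27 to -2.58. The replicate block changed no call of these genes, with 7 called and a log2 fold change of -0.91 for Cldn11, and left 553 genes called lower and 563 higher overall. Within the libraries above and below 10% ribosomal RNA share, Opalin changed by -2.56 and -3.78, Mog by -3.14 and -3.67 and Cnp by -0.94 and -0.93. All of the 9 genes but Cnp fell further in the class below 10%, which held 1 knockout library. Scaling by Olig1, Olig2 and Sox10 shifted the median of all genes to 0.15, with 372 genes called lower instead of 565, so that 28.8% instead of 43.7% of calls were lower. Genes called higher, 729 with all libraries, ran from 335 (without knockout replicate 2) to 810 with a library left out. Ranks not divided by length differ, with Mbp at 3 in the controls and 7 in the knockouts. Opalin had the fewest counts and the widest interval, and with at least 10 counts required in every library its log2 fold change was -2.90.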

Other observations

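Of 12 genes of newly formed oligodendrocytes, 7 passed the adjusted p of 0.05 as lower and 1 as higher, where 12.2% and 11.6% of all tested genes passed, with a median log2 fold change of -0.33. Bcas1 fell by 0.37 on the log2 scale, Rras2 fell by 1.33, and Bmp4 rose by 0.45. Gpr17, a receptor of committed precursors that the progenitor list also holds, had a log2 fold change of 0.26 (adjusted p = 0.0532, edgeR). Of 7 genes known from Schwann cells, the myelinating cells of peripheral nerves, 3 passed as lower, beside the same 12.2%. Pmp2, a lipid-binding protein of peripheral myelin, fell by 3.02, Pou3f1 fell by 1.89 and Egr2 fell by 1.54, while Pmp22 had a log2 fold change of 0.14 (adjusted p = 0.567, edgeR). The summed level of this list overlapped between the groups, at 62.3 to 93.8 and 60.9 to 71.9 CPM. Of 12 tested genes of fibroblasts, mural and endothelial cells, 2 passed the adjusted p of 0.05 as lower, near the 12.2% of all tested genes, 10 had a log2 fold change below 0 and the median was -1.37. Dcn fell by 3.05, and Col1a1 and Col1a2, the most abundant, had log2 fold changes of -2.30 and -2.64 (adjusted p = 0.0565 and 0.0546, edgeR). Their summed level was 291 to 1333 CPM in the controls and 133 to 303 CPM in the knockouts.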
